A study of Mus musculus with 3 samples.

Results

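The cells described here are those of the Pou1f1 lineage, the somatotrophs, lactotrophs and thyrotrophs of the anterior lobe (AL), found among single-cell transcriptomes of dissected mouse intermediate lobes (ILs). A barcode, the tag that marks one droplet, was counted as a member when it held at least 1 UMI (unique molecular identifier, 1 captured transcript) of Pou1f1 or Ghrhr. In addition, Gh, Prl and Tshb together had to make up at least 1% of its UMIs, and Pomc under 5%. This gave 77 members of 9661 barcodes. There were 42 of 2020 in WT, a share of 2.08% (exact binomial 95% interval 1.50 to 2.80), 8 of 4153 in P27NULL (0.193%, 0.0832 to 0.379) and 27 of 3488 in S2CK (0.774%, 0.511 to 1.12). Members were called Gh-led or Prl-led by the larger of these 2 counts. The levels of the 6 genes of the rule therefore chose the cells, and they are given below as a description.

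The study asked how SOX2 and p27 act in IL stem cells and in melanotrophs, the Pomc-expressing endocrine cells of the IL, during formation of IL tumors. It made 1 library for each of 3 genotypes from mice 3 months old, after the AL and posterior lobe had been dissected away. WT mice were Sox9iresCreERT2/+, P27NULL mice were Sox9iresCreERT2/+;p27-/- and S2CK mice were Sox9iresCreERT2/+;Sox2fl/+;p27-/-. All 3 thus carried a tamoxifen-inducible Cre at Sox9, a gene active in stem cells, and P27NULL and S2CK both lacked p27, an inhibitor of the cell cycle made from Cdkn1b. By the methods the mice also carried a Rosa26 eYFP reporter of Cre activity, and deletion of the Sox2 allele is limited to cells in which Cre was active and to their descendants. By the labels tamoxifen was given to mice aged 4 weeks, whereas the study's text places the induction at birth. By the study's account WT pooled the ILs of males, and P27NULL and S2CK each those of male and female mice, on a mixed background. There is 1 library per genotype, so differences between genotypes cannot be told apart from differences between pools, sexes or dissections. All intervals below cover counting error only, and no test between genotypes was possible.

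In the pituitary, the POU-homeodomain factor Pou1f1 (Pit-1) is needed for somatotrophs, which release growth hormone (Gh), for lactotrophs, which release prolactin (Prl), and for thyrotrophs, which release thyrotropin, a dimer of the beta subunit Tshb and the alpha subunit Cga that it shares with the gonadotropins. Ghrhr, the receptor through which hypothalamic GHRH acts, is a Pou1f1 target of somatotrophs. These cells belong to the AL and the IL is not their usual site, whereas melanotrophs arise under Pax7 and Tbx19 and make Pomc.

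Pou1f1 binds short A/T-rich sites in the promoters of its target genes. The RefSeq windows of 250 bases before the annotated start (build GRCm38.p6) are printed for the members' own genes that had an entry, with matches to TATNCAT on either strand in capitals. The windows lie at chr13:27057320-27057569 on the plus strand for Prl, at chr16:65520262-65520511 on the plus strand for Pou1f1 and at chr3:102782715-102782964 on the minus strand for Tshb, and each ends at the base before the transcription start. They read 5′ to 3′ as follows.
Prl: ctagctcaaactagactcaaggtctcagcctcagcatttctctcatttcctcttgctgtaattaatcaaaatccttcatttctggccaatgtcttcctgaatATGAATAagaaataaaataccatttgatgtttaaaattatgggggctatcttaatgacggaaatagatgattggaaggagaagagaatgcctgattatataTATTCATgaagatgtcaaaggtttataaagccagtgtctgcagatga
Pou1f1: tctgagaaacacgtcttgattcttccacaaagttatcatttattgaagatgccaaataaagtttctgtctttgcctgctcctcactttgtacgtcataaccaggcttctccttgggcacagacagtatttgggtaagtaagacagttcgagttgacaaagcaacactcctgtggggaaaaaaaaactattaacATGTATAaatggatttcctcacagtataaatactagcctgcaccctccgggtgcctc
Tshb: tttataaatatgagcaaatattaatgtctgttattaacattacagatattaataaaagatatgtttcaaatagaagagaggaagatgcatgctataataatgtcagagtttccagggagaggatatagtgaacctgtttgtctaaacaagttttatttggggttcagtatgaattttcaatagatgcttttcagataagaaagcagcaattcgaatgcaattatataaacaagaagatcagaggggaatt
The Prl window held 2 matches, ATGAATA beginning 148 bases and TATTCAT beginning 47 bases before the start. The Pou1f1 window held 1, ATGTATA, beginning 57 bases before the start, and the Tshb window held none. RefSeq gives a second start of Pou1f1, whose window at chr16:65523059-65523308 on the plus strand held none. Of 32851 mouse promoter windows of this length, 7.92% held at least 1 match and 1.26% held 2 or more. A match is a string of letters, not a measured binding site. Gh (chromosome 11, 106300261 to 106303703 in the annotation) and Ghrhr (chromosome 6) were not among the windows used here.

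The levels of Pou1f1 and Ghrhr follow from the rule and are given as a description. Pou1f1 was seen at 1 UMI in 20, 5 and 7 members of WT, P27NULL and S2CK and at 2 or more in 20, 3 and 20. There were 2 Pou1f1 UMIs in 1299 WT barcodes at 5% Pomc or more and 0 in 3529 of P27NULL and in 3031 of S2CK. A further 617, 506 and 402 barcodes were set apart by Pomc under 5%, hormone under 1% and no Pou1f1 or Ghrhr UMI, gonadotrophs left out. Their count of 0 Pou1f1 UMIs follows from that choice. Ghrhr had a row in the WT table only, where 9 UMIs fell in 9 members, all of them Gh-led. For 2 of these, Ghrhr was the sole UMI by which the barcode entered, so somatotrophs of P27NULL and S2CK could enter through Pou1f1 alone.

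Markers of other lineages, which apart from Pomc the rule did not use, were mostly lower in members than in other barcodes. The 9 melanotroph markers summed to 1404, 1614 and 2863 CPM (UMIs per 1000000 UMIs of the group) in members of WT, P27NULL and S2CK against 140128, 127226 and 130917 in other barcodes. Most of this was Pomc itself, at 1326, 1474 and 2763 CPM in members of WT, P27NULL and S2CK. The rule limits Pomc in members, so the difference in these sums follows largely from that choice and lineage is not read from it. Pax7 and Tbx19 were at 0 in members of P27NULL and S2CK. Stem cell markers summed to 83.2, 0 and 11.1 CPM, against 798, 322 and 244 in the other barcodes, with Sox9 at 0 in members of all 3 libraries. Macrophage markers reached 249, 351 and 5.56 CPM against 1020, 683 and 771. Gonadotroph markers summed to 127, 35.1 and 16.7 CPM and corticotroph markers to 44.0, 0 and 0. Endothelial, connective tissue and pituicyte markers stayed at or under 63.6 CPM, and those of T and NK cells and of red cells were at 0 in members of the 3 libraries.

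Members were somewhat deeper than other barcodes, and the rule favours depth because it needs a UMI of the low-count Pou1f1 or Ghrhr. They held 1940 to 12319 UMIs, median 4889, and 913 to 2693 genes, median 1521, with 1.64 to 9.17% of UMIs from mitochondrial genes. Their median UMI count was 4526 in WT, 3125 in P27NULL and 6415 in S2CK, against 3620, 2740 and 4902 for the other barcodes. Barcodes with 1% or more hormone but no Pou1f1 or Ghrhr UMI had medians of 3758, 2451 and 7310. After thinning of each cell to 1000 UMIs the shares of members were 0.807, 0.0482 and 0.229%, so the number of members depends on depth. Summed over members, this gave 204413, 28498 and 179865 UMIs of library totals of 8332285, 15588317 and 19239147. P27NULL values therefore carry by far the widest intervals. Libraries shared 2 to 4 barcode sequences per pair.

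The 3 libraries held both kinds of hormone cell, in different proportions. Gh-led members were 29 of 42 in WT (69.0%, exact binomial 95% interval 52.9 to 82.4), 4 of 8 in P27NULL (50%, 15.7 to 84.3) and 4 of 27 in S2CK (14.8%, 4.19 to 33.7). The intervals of WT and S2CK do not overlap, and each covers the cells of 1 pool only. WT was made from males by the study's account, and S2CK from male and female mice. In S2CK, however, 0 members and 0 other barcodes held a Y-linked UMI, which differs from that account, and most held Xist. Sex markers thus moved with this difference, and the part of sex in it was not tested.

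**Figure D1:**
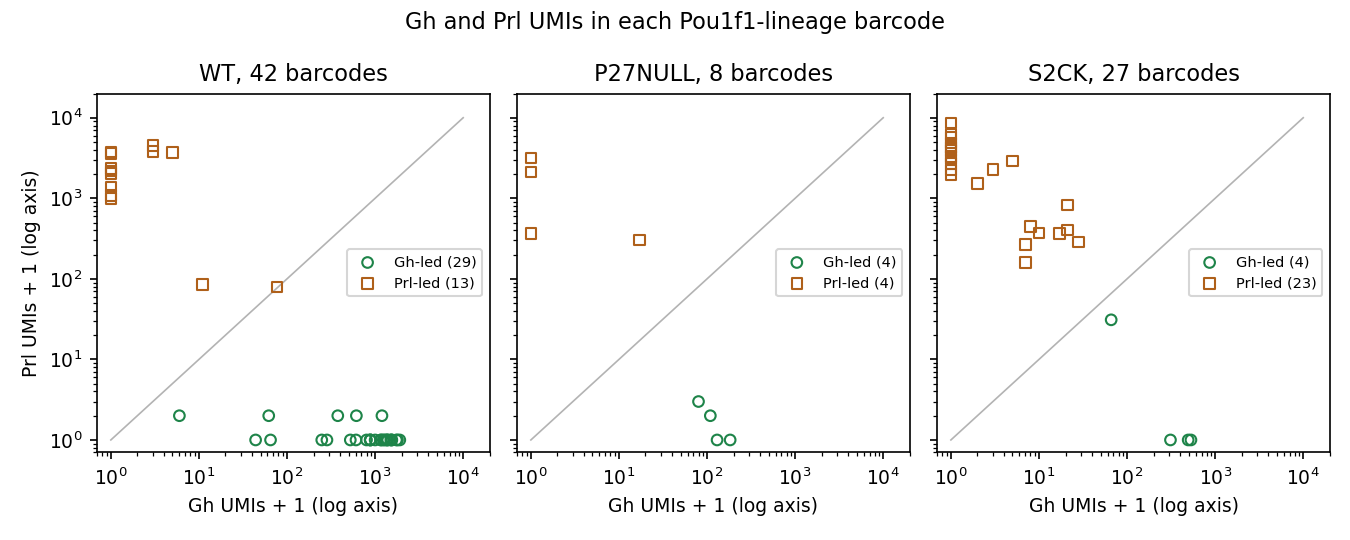
Gh and Prl UMIs of each member, one point per barcode, on log10(UMIs + 1) axes for WT, P27NULL and S2CK. Most points lie along one of the axes, with up to 1907 Gh or 8586 Prl UMIs, and 12 members hold at least 5 UMIs of both.

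Gh levels varied widely among Gh-led members. In the 29 Gh-led WT members Gh ran from 5 to 1907 UMIs with a median of 1000. The 4 of P27NULL held 79, 108, 129 and 182 Gh UMIs, and the 4 of S2CK held 65, 310, 493 and 530. Every Gh-led member of P27NULL and S2CK thus lay under the WT median, and both sets lay within the WT range. Gh-led P27NULL barcodes with 1% or more hormone but no Pou1f1 or Ghrhr UMI held 11, 12, 14, 336, 527 and 1512 Gh UMIs. The low Gh of P27NULL was thus seen in members and not in all Gh-led barcodes.

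Prl was more abundant per cell. In the 13 Prl-led WT members it ran from 78 to 4487 UMIs with a median of 2185. The 4 Prl-led members of P27NULL held 301, 365, 2121 and 3161 Prl UMIs, and the 23 of S2CK ran from 159 to 8586 with a median of 2294. The ranges of the 3 libraries overlapped and the medians of WT and S2CK lay close together.

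The share of a cell's transcripts given to hormone followed these counts. Gh, Prl and Tshb together made up 1.09 to 34.3% of UMIs in Gh-led WT members, median 24.6%, and 1.56 to 59.5% in Prl-led ones, median 33.6%. In Prl-led members the medians were 36.8% in P27NULL and 35.2% in S2CK, with highest values of 64.7% and 69.7%. Gh-led members of P27NULL had a median of 5.60% and a highest value of 7.53%, and those of S2CK 10.0% and 12.5%. Those 8 cells lay in the lower part of the WT range. Outside the members, Gh-led P27NULL barcodes with 1% or more hormone but no Pou1f1 or Ghrhr UMI ran from 1.01 to 29.9%.

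**Figure D2:**
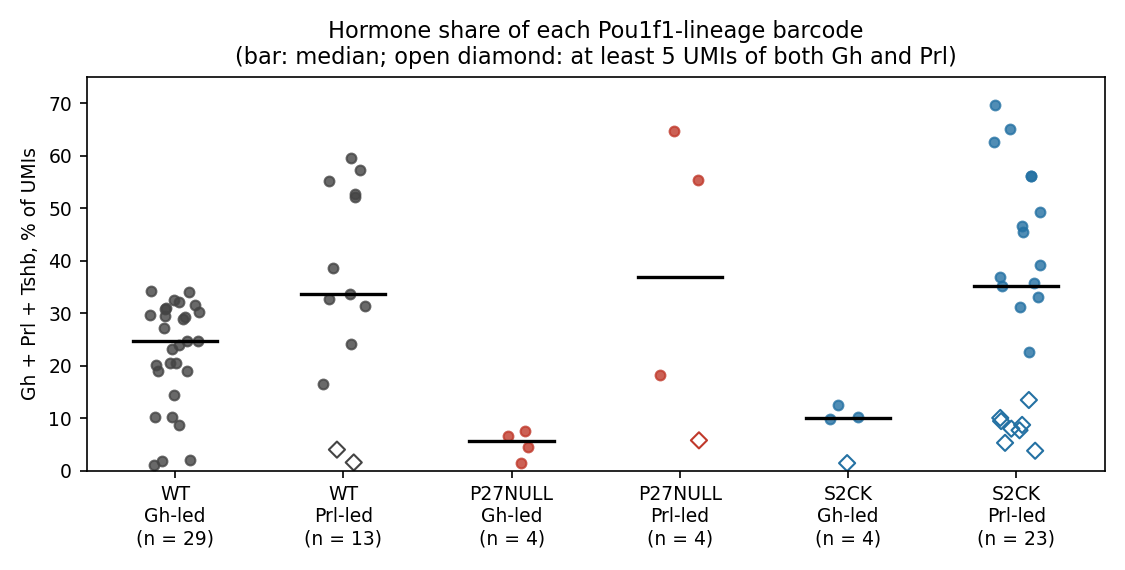
Gh, Prl and Tshb together as a percentage of each member's UMIs, one point per barcode, by library and by Gh-led or Prl-led, with the median as a bar. Prl-led members reach 59.5 to 69.7% in the 3 libraries, whereas Gh-led members reach 34.3% in WT, 7.53% in P27NULL and 12.5% in S2CK.

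A smaller set of members expressed both hormones. With at least 5 UMIs of each, 12 members qualified, 2 in WT, 1 in P27NULL and 9 in S2CK, and 11 of them were Prl-led. They held 6 to 76 Gh UMIs and 30 to 828 Prl UMIs. Their hormone share was low, 1.44 to 13.5% with a median of 6.74%. The 29 Prl-led members with fewer than 5 Gh UMIs had shares of 16.6 to 69.7%, median 45.5%, so among members the 2 sets did not overlap in this measure, which the choice of members used in part. Outside the members they did. Of 16 Prl-led barcodes with fewer than 5 Gh UMIs that passed the hormone limit without a UMI of Pou1f1 or Ghrhr, 6 lay under the highest share of the cells with both hormones, the lowest at 1.32%.

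RNA from broken cells also enters droplets, so the hormone counts of these cells are set beside those of other barcodes. At the Gh level of barcodes with 5% Pomc or more, a barcode of the same depth would hold 0.00910 to 0.0151 Gh UMIs in S2CK, where the 9 cells held 6 to 65. The values were 0.218 and 0.342 in WT, where the 2 cells held 10 and 76, and 0.0341 in P27NULL, where the cell held 16. A second level came from barcodes with Pomc under 5%, hormone under 1% and no Pou1f1 or Ghrhr UMI, gonadotrophs left out. At that level the values were 0.00227 to 0.00377 in S2CK, 0.508 and 0.795 in WT and 0.101 in P27NULL. Doublets were not called, and their part in these cells was not tested. These 12 members had 3844 to 6619 UMIs, median 4841.5, against a median of 6807 in the 29 Prl-led members named above. Of all 35 barcodes without a UMI of Pou1f1 or Ghrhr but with 1% or more hormone, 5 held both hormones.

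Gal and Dlk1 also differed in the cells with both hormones, in a comparison made after their values were seen. Gal, which encodes galanin, a neuropeptide that lactotrophs can make, had a median of 42.7 UMIs per 10000 UMIs that were not hormone (0 to 92.1) in the 12 cells. It was 2.85 (0 to 33.0) in the other Prl-led members and 3.04 (0 to 34.1) in the other Gh-led ones. Dlk1, an imprinted gene for a Notch-like membrane protein, was at 23.1, 6.43 and 26.8 in the same order, so the median of the cells with both hormones was nearer to that of Gh-led cells in Dlk1. The cell of P27NULL held 1 Dlk1 UMI and 0 of Gal and thus did not share this. These medians pool libraries of different makeup. Within S2CK alone the medians in the same order were 42.7, 0 and 8.67 for Gal and 22.5, 6.54 and 20.2 for Dlk1. For Nnat, an imprinted gene for an endoplasmic reticulum proteolipid, they were 51.6, 37.0 and 17.7 there, and for the share of mitochondrial genes among UMIs that were not hormone 6.56, 7.93 and 5.78%.

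**Figure D3:**
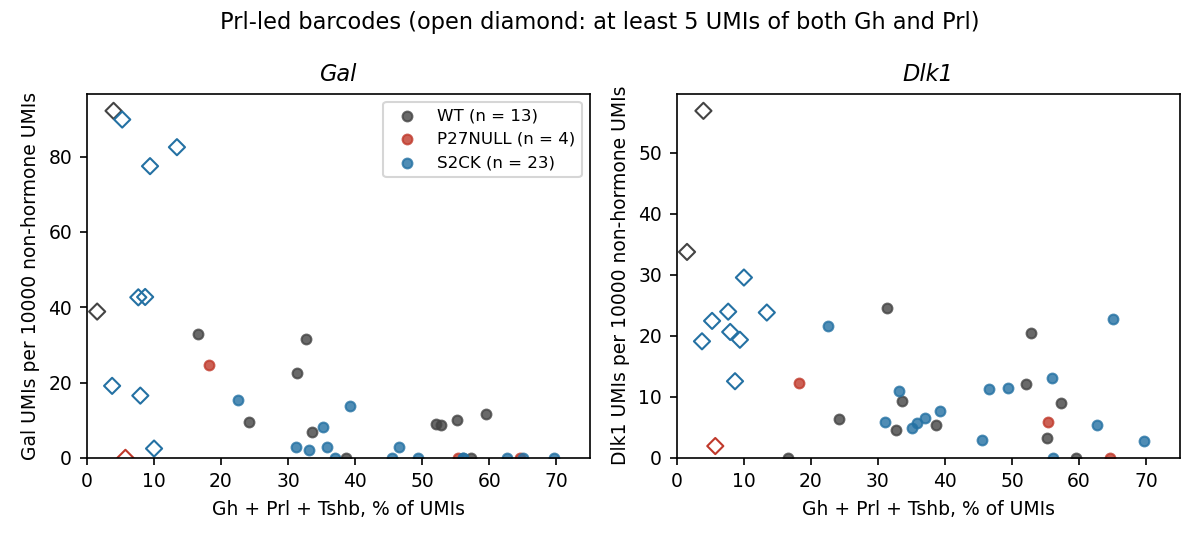
Gal and Dlk1 UMIs per 10000 UMIs that are not hormone against the hormone share of each Prl-led member, coloured by library and marked by class. Gh-led members are not drawn. Cells with both hormones lie at shares up to 13.5% and reach 92.1 for Gal, whereas Prl-led members without Gh lie at 16.6% or more and reach 33.0.

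Within S2CK, where 9 of the 12 cells lay, the contrast with the 15 other Prl-led members was led by Cebpd, which encodes a C/EBP transcription factor. It had 75 UMIs in 9 of 9 cells (1 to 23 each) against 7 UMIs in 4 of 15 cells (at most 3). Gal had 226 UMIs in 9 of 9 cells (1 to 59) against 30 in 7 of 15 (at most 12), and Jun 33 in 5 of 9 against 4 in 2 of 15. Relative to UMIs that were not hormone, these were log2 differences of 4.01, 3.50 and 3.64. The 3 Gh-led S2CK members without Prl also held Cebpd, at 46 UMIs (3, 14 and 29), and 2 of them Jun, at 18 UMIs, so neither gene was particular to cells with both hormones. In WT Cebpd had 6 and 0 UMIs in the 2 cells with both hormones, 16 in 4 of 11 other Prl-led members and 60 in 17 of 29 Gh-led ones.

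Thyrotrophs were represented by 1 cell. A WT member with 8674 UMIs held 1239 Tshb and 1878 Cga UMIs beside 5 Gh and 1 Prl, and so was counted as Gh-led. It also held 2 UMIs of Gata2, which acts with Pou1f1 on Tshb, 2 of Dio2, the enzyme that activates thyroid hormone, and 4 of Rxrg. This cell carried 99.4% of all Tshb UMIs of WT members and 89.9% of their Cga, which falls from 10219.5 to 1078 CPM without it. A further 4 WT members held at least 10 Cga UMIs, with 81, 35, 48 and 39, and the first of them also held 8 Lhb and 12 Fshb UMIs. No member of P27NULL or S2CK reached 10 Cga UMIs.

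The hormone limit had few barcodes on either side. The members just inside the 1% limit had hormone shares of 1.09% in WT, 1.46% in P27NULL and 1.44% in S2CK. Just outside lay 8 barcodes with Pou1f1 and Pomc under 5%, 4 in WT at 0, 0.0530, 0.104 and 0.620%, 2 in P27NULL at 0.269 and 0.400% and 2 in S2CK at 0 and 0.419%. Several of these were rich in Cga or Gal instead, with up to 189 Cga UMIs and up to 134 Gal UMIs in WT. On the other side, 14, 13 and 8 barcodes of WT, P27NULL and S2CK passed the hormone limit without a UMI of Pou1f1 or Ghrhr.

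Gh and Prl UMIs were also found in barcodes rich in Pomc. A Gh UMI was present in 14.8% of WT barcodes at 5% Pomc or more, in 1.70% of P27NULL and in 1.19% of S2CK, at median depths of 4214, 2844 and 5036 UMIs. For Prl the shares were 5.23, 4.28 and 12.0%. After thinning of each cell to 1000 UMIs these fell to 4.85, 0.680 and 0.297% for Gh and 1.33, 1.59 and 2.94% for Prl. These barcodes held 56.8, 6.21 and 2.28 CPM of Gh and 23.6, 27 and 36.2 CPM of Prl, with Gh highest in WT and Prl highest in S2CK, as in the members. Single barcodes among them reached 28, 11 and 2 Gh UMIs and 47, 28 and 67 Prl UMIs, so free RNA and doublets cannot be told apart here. In members the same genes stood at 134703, 18036 and 8429 CPM of Gh and 144683, 208822 and 338226 CPM of Prl.

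Genes of the X and Y chromosomes differed between members and other barcodes in 1 library. All 8 P27NULL members held Xist, the RNA of the inactive X (100%, exact binomial interval 63.1 to 100), and none held a Y-linked UMI. Of the other barcodes of that library 18.7% held Xist and 18.6% a Y-linked UMI, at a median depth of 2740 against 3125 UMIs. Of the 13 P27NULL barcodes that passed the hormone limit without a UMI of Pou1f1 or Ghrhr, 3 (23.1%) held Xist and 0 a Y-linked UMI, at a median depth of 2451 UMIs, so they did not share the pattern of the members. In S2CK 25 of 27 members (92.6%) and 93.9% of other barcodes held Xist. In WT, where the table has no Xist row, 13 of 42 members and 28.6% of other barcodes held a Y-linked UMI. The comparisons of P27NULL and S2CK with WT below are thus also between members that differ in sex markers, and the part of sex was not tested. Members of P27NULL and S2CK were alike in these markers, since most held Xist and 0 held a Y-linked UMI.

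Against all other barcodes of their library, more genes were lower than higher in members, and the genes that lead are few. At least 2-fold higher were 57 of 4616 genes in WT (1.23%), 12 of 688 in P27NULL (1.74%) and 46 of 3885 in S2CK (1.18%), among genes with at least 30 UMIs in all and 5 expected in members. At least 2-fold lower were 951 (20.6%), 128 (18.6%) and 966 (24.9%). Hormone RNA takes room from all other transcripts, and on a total without hormones, mitochondrial and ribosomal protein genes all ratios rise by 0.33, 0.22 and 0.42 on the log2 scale. The median ratio then moves from -0.40 to -0.07 in WT, from -0.25 to -0.02 in P27NULL and from -0.49 to -0.07 in S2CK, and the splits of higher and lower genes become 146 and 646, 28 and 101, and 157 and 585.

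Nnat had the highest lowest ratio over the 3 libraries. It had 7705 CPM in WT members against 469 in other barcodes, 6457 against 236 in P27NULL and 3163 against 101 in S2CK. The log2 ratios were 4.04 (95% counting interval 3.95 to 4.12), 4.77 (4.55 to 4.99) and 4.97 (4.84 to 5.11). All 77 members held Nnat UMIs, as did 12.8, 7.33 and 5.35% of other barcodes.

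Dlk1 marked the members even more sharply. It was found in 40 of 42 WT members and in 3.94% of other barcodes, in 7 of 8 against 1.30% in P27NULL and in 26 of 27 against 0.347% in S2CK. Its levels were 1605 against 40.1 CPM, 1579 against 12.1 and 1006 against 3.25, log2 ratios of 5.32, 7.03 and 8.27. The latter 2 rest on expected counts under 5 and so stand outside the counts of genes above.

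Gal was found in 26 of 42, 3 of 8 and 19 of 27 members. Its levels were 817 against 65.9 CPM in WT, 842 against 47.7 in P27NULL and 1507 against 21.0 in S2CK, log2 ratios of 3.63, 4.14 and 6.17. In 16, 5 and 8 members it was at 0, so its level varied more from cell to cell than that of Nnat and Dlk1.

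**Figure D4:**
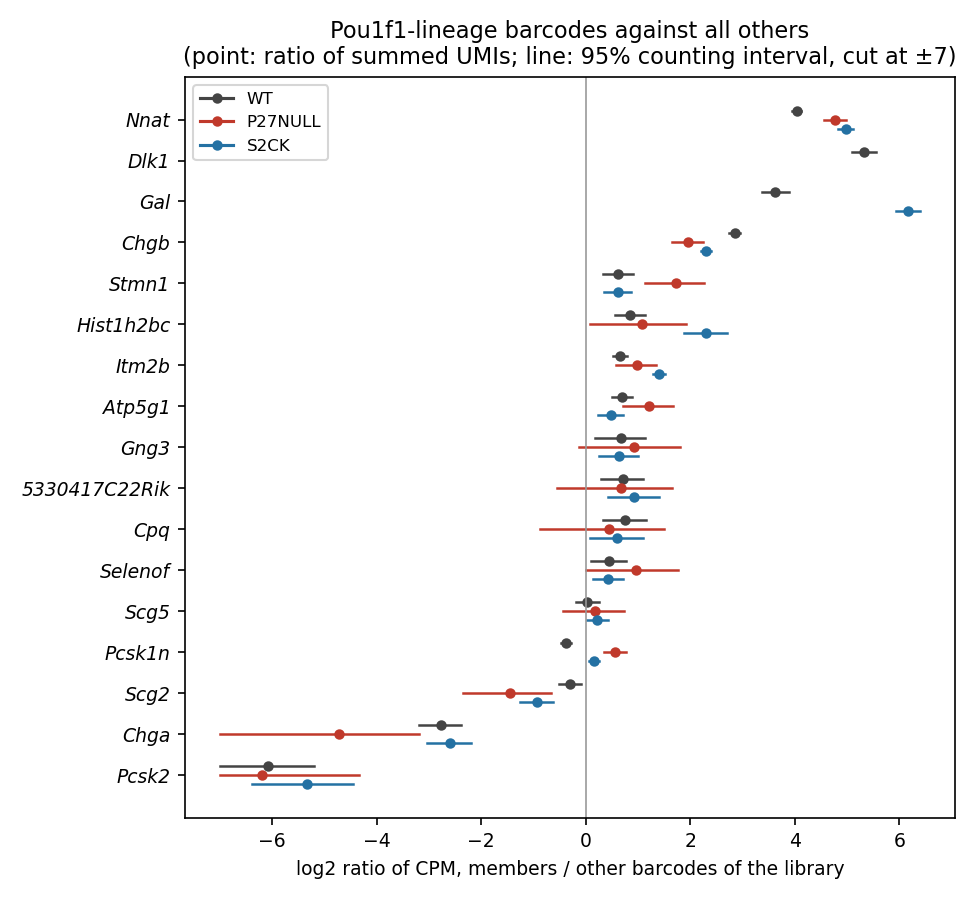
Log2 ratio of members to other barcodes for the leading genes in WT, P27NULL and S2CK, with 95% counting intervals cut at 7 in either direction. Nnat lies at 4.04 to 4.97 in the 3 libraries, and a gene without a point in a library had an expected count under 5 in members there.

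Secretory granule genes split. Chgb, a granin of the granule core, was higher in members at 4599 against 638 CPM in WT, 3334 against 859 in P27NULL and 5148 against 1047 in S2CK, with log2 ratios of 2.85, 1.96 and 2.30. In WT 24.1% of its UMIs came from the Tshb-rich cell. Chga, its relative, was lower, with log2 ratios of -2.78, -4.73 and -2.60, and Pcsk2, the convertase that cleaves Pomc to melanocyte-stimulating hormone, was at -6.08, -6.20 and -5.33. Pcsk1, the other prohormone convertase, was higher in WT (22 UMIs in members, log2 ratio 1.48, 0.78 to 2.10). Over the list of 12 granin and processing genes, 2 were higher and 2 lower of 11 measured in WT, 1 and 4 of 8 in P27NULL and 1 and 2 of 10 in S2CK. Of all genes 1.23, 1.74 and 1.18% were higher and 20.6, 18.6 and 24.9% lower, so the lower share in WT was near that of all genes. The list medians were -0.30, -0.96 and 0.19.

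The machinery of protein folding in the endoplasmic reticulum was close to that of other barcodes. Of 28 listed genes, 0 were 2-fold higher, and 1 of 27 was lower in WT, 2 of 14 in P27NULL and 2 of 27 in S2CK. The list medians were 0.10, -0.44 and 0.08 beside -0.40, -0.25 and -0.49 over all genes. Of 20 exocytosis genes, 0 were higher and 3 of 14, 2 of 3 and 6 of 11 were lower, beside 20.6, 18.6 and 24.9% of all genes, so the WT share was near that of all genes.

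The lists of lineage factors and receptors were not higher in members as a whole. The 21 factors summed to 1213 CPM in members against 1156 in other barcodes of WT, 1298 against 1216 in P27NULL and 1012 against 1055 in S2CK. The 18 somatotroph receptor and signalling genes had lower sums, at 3243 against 4927, 3684 against 6058 and 2858 against 5735. Such a sum is set mostly by its most abundant genes, so no level of a single receptor is read from it. The 16 lactotroph and thyrotroph genes summed to 959 against 224, 1053 against 252 and 1646 against 195, of which Gal alone made up 817, 842 and 1507 CPM in members. A few single genes of these lists had higher levels in members. Rxrg, a retinoid receptor of thyrotrophs, had 12, 2 and 5 UMIs in members against 2, 7 and 5 in all other barcodes together. Neurod4, a bHLH factor of the Pou1f1 lineage, had 2, 2 and 7 UMIs in members against 7, 8 and 19. Prlr, the prolactin receptor, was at 63.6 against 13.9 CPM in WT and 72.3 against 5.88 in S2CK, with 13 UMIs in members of each and 1 in P27NULL. Among 21 listed factors, 1 was higher and 2 lower of 10 measured in WT, 0 and 1 of 1 in P27NULL and 0 and 1 of 8 in S2CK. The shares over all genes were 1.23, 1.74 and 1.18% higher and 20.6, 18.6 and 24.9% lower. In WT the share of lower factors was thus near that of all genes. Pitx1, which is shared by all pituitary endocrine cells, was at 127 against 77.9 CPM in WT and 72.3 against 92.9 in S2CK.

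Other genes at the top of all 3 libraries differed by less. Itm2b, a membrane protein gene, had log2 ratios of 0.66, 0.98 and 1.40. Stmn1, which encodes the tubulin-binding protein stathmin, was at 0.62, 1.72 and 0.61. Atp5g1, a subunit of ATP synthase, was at 0.70, 1.21 and 0.48. Hist1h2bc was at 0.85, 1.08 and 2.30, and it belongs to a family of near-identical histone genes whose reads cannot always be placed. The ratios of Gng3, Cpq, Selenof and 5330417C22Rik ran from 0.43 to 0.96.

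The immediate early genes, switched on within minutes of a stimulus, differed by library. Of 17 listed, 1 was higher and 3 lower of 15 measured in WT, 2 and 0 of 5 in P27NULL and 3 and 2 of 11 in S2CK. Over all genes 1.23, 1.74 and 1.18% were higher and 20.6, 18.6 and 24.9% lower. The share of lower genes in WT was thus near that of all genes. The list medians were -0.10, 0.96 and 0.85. Ier2 was at log2 ratios of 0.36, 1.52 and 1.76 and Fos at -0.49, 0.96 and 0.91. Ier2 was thus higher in members of the 3 libraries, whereas Fos was lower in WT.

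Gonadotrophs are another endocrine type of the AL, and Nnat and Chgb were found in them too. Gonadotroph barcodes were chosen by their UMIs of Gnrhr, Nr5a1, Lhb and Fshb, with 44, 95 and 18 of them in WT, P27NULL and S2CK. They held 164450, 49553 and 107170 CPM of Cga, so their Cga level was lowest in P27NULL. In members against these barcodes, Nnat was at log2 ratios of 1.88, 1.32 and 0.66 and Chgb at 2.20, 1.02 and 3.19. Dlk1 had 8 UMIs in those of WT and 0 in those of S2CK, against 328 and 181 in members.

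Gh-led and Prl-led members were then compared within each library. In WT, 63 of 681 genes (9.25%) were at least 2-fold higher in Gh-led cells and 24 (3.52%) in Prl-led cells. In P27NULL the counts were 44 (44.9%) and 0 (0%) of 98, and in S2CK 84 (14.8%) and 23 (4.06%) of 566. Because Prl-led cells give more of their UMIs to hormone, ratios fall by 0.20, 0.50 and 0.60 on a total without hormones. The splits then become 39 and 37 in WT, 17 and 2 in P27NULL and 18 and 74 in S2CK, and with TMM factors 8 and 237 in S2CK, so the direction of the bulk of genes depends on the total used. Counts include genes with 0 UMIs in one of the groups.

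Dlk1 was higher in Gh-led cells of the 3 libraries on total UMIs. Its levels were 2021 against 953 CPM in WT, 3335 against 247 in P27NULL and 2323 against 851 in S2CK, with log2 ratios of 1.08, 3.76 and 1.45. Without hormones in the total these were 0.88, 3.25 and 0.85. In S2CK TMM factors shift all ratios by -1.24, which takes away most of the Dlk1 ratio there. Of the 44 Dlk1 UMIs of Gh-led S2CK members 22 lay in 1 cell, and without it the ratio on total UMIs was 1.07 (0.35 to 1.72). Every one of the 29 Gh-led WT members held Dlk1, with 1 to 20 UMIs.

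Nnat went the other way. It was at 4347 against 12957 CPM in WT, 5694 against 7035 in P27NULL and 2006 against 3300 in S2CK, log2 ratios of -1.58, -0.31 and -0.72. In WT the Gh-led members held 2 to 45 Nnat UMIs, median 16, and the Prl-led ones 36 to 139, median 75, so the ranges of raw counts met only at their edges. Prl-led members were also deeper there, with a median of 6496 UMIs against 4376. Per 10000 UMIs that were not hormone, Gh-led members reached 150. The 2 Prl-led cells with both hormones stood at 97.6 and 127, within the Gh-led range, and the other 11 at 157 or more. In P27NULL the counting interval of the ratio, -0.76 to 0.14, includes 0.

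Chgb also leaned to Prl-led cells in WT and S2CK. Its log2 ratio was -0.75 in WT, and -1.65 without the Tshb-rich cell, and -1.38 in S2CK. In P27NULL it was 0.31, and -0.19 without hormones in the total, so no direction is read there.

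**Figure D5:**
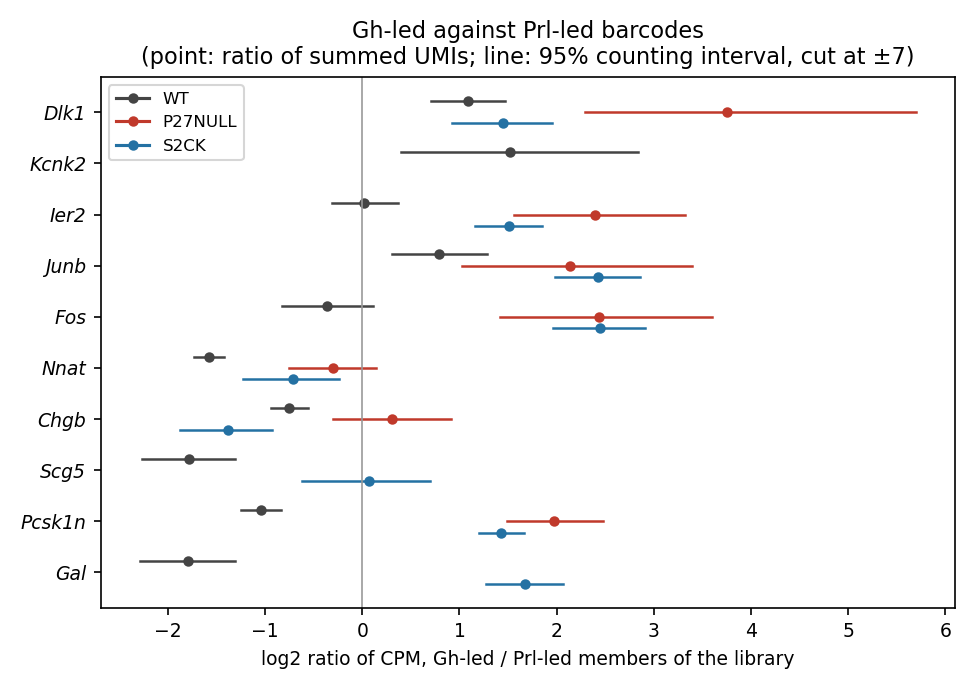
Log2 ratio of Gh-led to Prl-led members in WT, P27NULL and S2CK with 95% counting intervals, for genes with at least 30 UMIs in both groups together. Dlk1 lies above 0 in the 3 libraries (1.08, 3.76 and 1.45), and Nnat lies below 0 (-1.58, -0.31 and -0.72).

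Some genes were found in one kind of WT cell and almost absent from the other. Cidea, a gene of lipid droplets, had 37 UMIs in 14 of 29 Gh-led members and 0 in the 13 Prl-led ones. Mt2, a metallothionein gene, had 36 against 1, and Dapl1 41 against 3. Apoe had 47 against 1, but 42 of the 47 lay in a single cell. In the opposite direction Hspb1, which encodes a small heat shock protein, had 1 UMI in Gh-led members and 29 in Prl-led ones, in 11 of the 13. Olfm1, a secreted glycoprotein gene, had 6 against 27.

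The mutant libraries held too few Gh-led cells to compare these well. Cidea had 0 UMIs in members of both, and Mt2 had 0 in P27NULL and 1 against 2 in S2CK. Hspb1 was seen in Prl-led members alone, with 6 UMIs in P27NULL and 5 in S2CK, as was Olfm1 with 6 and 17. At these totals a count of 0 in Gh-led cells allows 3 UMIs, and the intervals of the ratios include 0. In S2CK Rtn1, a reticulon gene, and Rnaset2a each had 3 UMIs in Gh-led and 40 in Prl-led members, and the splicing factor gene Srsf9 had 0 and 31. Rnaset2a has a near-identical neighbour, so its counts are uncertain.

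Kcnk2, the gene of a tandem-pore potassium channel, was found in 24 of 42, 4 of 8 and 12 of 27 members. It had 36 UMIs in Gh-led and 8 in Prl-led WT members, a log2 ratio of 1.52 (0.40 to 2.84), and 11 and 0 in P27NULL. In S2CK it had 3 and 17, a ratio whose interval includes 0.

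Immediate early genes leaned to Gh-led cells in the p27-/- libraries. Of those measured, 1 of 7 was at least 2-fold higher in Gh-led cells of WT, 3 of 3 in P27NULL and 6 of 7 in S2CK, with 0 lower, beside 9.25, 44.9 and 14.8% of all genes. On a total without hormones the counts were 1, 3 and 5, and with TMM factors 1, 3 and 4. Fos had log2 ratios of -0.36, 2.43 and 2.44, Junb 0.79, 2.14 and 2.43 and Ier2 0.02, 2.40 and 1.51. In S2CK TMM factors take Junb to 1.18 and Ier2 to 0.26. Jun was at 2.93 in S2CK and at 1.74 without the Gh-led cell with most of it. These groups hold 4 Gh-led cells each, and the difference between libraries was not tested.

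Between genotypes, the members of P27NULL and WT were at least 2-fold apart in 146 of 789 genes (18.5%), 65 higher and 81 lower in P27NULL. Those of S2CK and P27NULL differed in 97 of 667 (14.5%), 50 higher and 47 lower, and those of S2CK and WT in 111 of 1245 (8.92%), 30 higher and 81 lower. These splits depend on scaling. Without hormones in the total the ratios shift by -0.14, 0.32 and 0.18, and the splits are 40 and 104, 84 and 18, and 54 and 52. With TMM factors they are 3 and 241, 205 and 3, and 48 and 52.

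The share of Gh-led cells differed between the members of the 3 libraries, and its part in these values was not tested. Cidea had 37 UMIs in WT members and 0 in both others, and Dapl1 44 against 0 and 1. In Gh-led members alone Cidea was at 297 CPM and Dapl1 at 329 CPM in WT and both had 0 UMIs in P27NULL and S2CK, where 0 allows up to 244 and 158 CPM. Cga, carried mainly by the Tshb-rich cell, had 2089 against 0 and 5. Plagl1, an imprinted zinc finger gene, had 30 against 0 in P27NULL, and Syt4, a synaptotagmin gene, 43 against 0. At 28498 UMIs a count of 0 in P27NULL allows up to 105 CPM, beside 147 CPM of Plagl1 and 210 of Syt4 in WT.

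Gadd45g, a growth arrest and stress gene, was higher in members of both p27-/- libraries than in WT. It had 702 CPM in P27NULL and 395 in S2CK against 78.3 in WT, log2 ratios of 3.16 (2.14 to 4.21) and 2.33 (1.54 to 3.22). In the other barcodes the ratios were 0.19 and -0.76. The counts were uneven, with 15 of 20 UMIs of P27NULL members in 1 cell and 20 of the 21 UMIs of Gh-led S2CK members in 1 cell. In Prl-led members of S2CK it had 50 UMIs against 3 in WT, a log2 ratio of 3.05 (1.42 to 5.37).

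Further genes higher in P27NULL than in WT members were Dbpht2 (log2 ratio 2.01), Btg1 (1.77), S100a10 (1.75) and Tle4 (1.66), each on 10 to 15 UMIs in P27NULL. Btg1 encodes an antiproliferative protein, S100a10 an annexin partner and Tle4 a Groucho corepressor.

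Between S2CK and P27NULL the largest increases were in Pcbd2 (2.59), Pdcd6 (2.39), Cetn3 (2.27), Fkbp2 (2.08) and Selenom (1.99), each on at most 6 UMIs in P27NULL. Lower were Nsa2 (-2.11), Kcnk2 (-1.80), Dync1i2 (-1.72), Tle4 (-1.71) and Hnrnpa2b1 (-1.66). Nsa2, Dync1i2 and Tle4 were also lower in the other barcodes of S2CK than in those of P27NULL, at -1.17, -1.36 and -1.16, so these differences were not seen in members alone.

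Between S2CK and WT, Prl-led members could be compared on 722 genes, of which 24 (3.32%) were at least 2-fold higher and 25 (3.46%) lower in S2CK. Over all members the leading genes besides Gadd45g were Sil1 (2.35), a chaperone cofactor gene, Rnaset2a (2.03), AC160336.1 (1.96) and Txnip (1.74), which encodes the thioredoxin-interacting protein. Txnip stood at 2.26 among Prl-led members. Lower in S2CK were Hist1h4h, with 1 against 35 UMIs, and Ctsz, a cathepsin gene, with 5 against 31 (-2.45). Hist1h4h shares its sequence with other histone genes, and both were also lower in other barcodes, at -1.87 and -1.04.

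Cdkn1b, the targeted gene, had 10 UMIs in WT members, all in 8 Gh-led cells, and 0 in members of P27NULL and S2CK, where 0 allows up to 105 and 16.7 CPM beside 48.9 in WT. In the other barcodes it had 334, 529 and 340 UMIs, 41.1, 34.0 and 17.8 CPM. Reads at the 3′ end of the gene thus remained in the p27-/- libraries, and whether they lie in the deleted part is not given in the sources used here. The gene therefore does not check the labels.

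Genes of cell division were not detected in members, with 1 exception. Mki67, Top2a, Ccnb2, Ccna2, Cdk1, Rrm2, Ube2c and Cenpa, genes of S phase and mitosis, had 0 UMIs in all 77 members, and Birc5 had 1 in S2CK. For Mki67, 0 in members allows up to 14.7 CPM in WT, whereas other barcodes were at 1.48 CPM, so this depth cannot show a difference. Ccnd2, the gene of cyclin D2, had 308, 351 and 44.5 CPM in members of WT, P27NULL and S2CK against 405, 114 and 18.2 in the other barcodes, and was thus lowest in S2CK in both.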

How the data were processed

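Droplet libraries of dissected ILs, 1 per genotype, were made by the authors with a 10x Genomics Chromium 3′ kit, sequenced on a HiSeq4000 and counted with Cell Ranger 3.0.2 on GRCm38. The deposited tables hold raw UMI counts of genes by barcodes, after the authors removed cells with fewer than 50 genes or over 10% mitochondrial content. Ghrhr has a row in the WT table only and Xist in the P27NULL and S2CK tables only. Barcodes of each library were grouped by counts alone, with no clustering and no removal of doublets. The members and the 27 gene lists were chosen with earlier results of these data known. Counts were summed over the barcodes of a group and given as CPM, with exact Poisson intervals, exact binomial (Clopper-Pearson) intervals for shares and exact conditional intervals for the log2 ratio of sums, at 95%. A count of 0 was taken to allow 3 UMIs. With 1 library per genotype there is no replicate, and no p-value was computed. Genes needed at least 30 UMIs in both groups together, and against other barcodes also 5 expected UMIs in members.

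Genes were named by rule. These were the 6 genes of the membership rule, the listed genes, the 10 genes with the highest lowest ratio of members to other barcodes, the 5 most toward Gh-led and Prl-led cells, and the 5 highest and lowest for each pair of genotypes. For the last, the CPM in members had to be at least that in other barcodes in the higher library. Cells with both hormones, the Tshb-rich cell and single cells left out were chosen after their values were seen. Symbols were matched to RefSeq on GRCm38.p6, with an entry for 16337 of 17775 (91.9%). The alternatives were other thresholds, thinning to 1000 UMIs, other totals, TMM scaling (R 4.3.3, edgeR 4.0.16) and other minimum counts. Python 3.11.15 with numpy 2.4.6, scipy 1.17.1 and pandas 2.3.3 was used, and the ratios and intervals were tested on simulated data.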

Additional observations from a re-analysis of the deposited data

Results flagged for a closer look

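Of the named genes, 3 had Gh-led to Prl-led ratios in opposite directions in 2 libraries, with counting intervals on either side of 0. Each library is a single sample, and the difference between libraries was not tested. Pcsk1n, which encodes the granin-like proSAAS, had a log2 ratio of -1.05 in WT against 1.97 in P27NULL and 1.43 in S2CK. Without the cell with most of its UMIs on either side it ran from -1.11 to -1.0 in WT, and without the top Gh-led cell it was 1.38 in P27NULL (89 of 140 UMIs in 1 cell) and 1.26 in S2CK.

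Gal had a log2 ratio of -1.79 in WT and 1.67 in S2CK. In S2CK 59 of the 74 UMIs of Gh-led members lay in 1 cell, which held both hormones, and without it the ratio was -0.01 (-0.87 to 0.75). In WT the ratio without the top Prl-led cell was -1.36.

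Pomc had a log2 ratio of -1.75 in WT and 2.27 in S2CK. The same S2CK cell held 149 of the 180 Pomc UMIs of Gh-led members, and without it the ratio was 0.35 (-0.23 to 0.89). In WT 94 of the 185 UMIs of Prl-led members lay in 1 cell, and without it the ratio was -0.89. Pomc under 5% was part of the rule that chose the members.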

How the results depend on the processing

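Of the alternatives, 30 of 36 for the share of members, 37 of 39 for the Gh-led share and 44 of 73 for counts of genes stayed within the interval or within 1.5 times the count. Of 732 for named genes 621 did so, and 0 reversed among genes at least 2-fold apart in the main setting. A minimum count cannot change a ratio, so 103 of these agreements (no minimum) and 58 (minimum of 100 UMIs) were fixed in advance. Counts of genes higher in members than in other barcodes could not change with it either. Without hormones in the total 72 stayed and 31 moved, with TMM 80 and 23, in Gh-led members 1 and 9, and in Prl-led ones 9 and 2. Smaller ratios were not counted as reversed, although that of Chgb between Gh-led and Prl-led cells of P27NULL changed sign without hormones in the total. With at least 2 UMIs of Pou1f1 and Ghrhr the share of members was 1.09% in WT and 0.0722% in P27NULL, with none needed it was 0.506% in P27NULL, and after thinning to 1000 UMIs it was 0.807% in WT, 0.0482% in P27NULL and 0.229% in S2CK. The Gh-led share was 0% in P27NULL after thinning and 0% among S2CK members without Xist, and the thinned shares of barcodes with a Gh or Prl UMI at 5% Pomc or more were 4.85 and 1.33% in WT, 0.680 and 1.59% in P27NULL and 0.297 and 2.94% in S2CK.

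Counts of genes higher in members than in other barcodes (57, 12 and 46 in WT, P27NULL and S2CK) were 146, 28 and 157 without hormones in the total and 94, 3 and 89 with TMM, and 25 in P27NULL with no Pou1f1 or Ghrhr UMI needed. Counts of genes apart between Gh-led and Prl-led members (87, 44 and 107) were 6014, 3829 and 7867 with no minimum and 22, 12 and 16 with a minimum of 100 UMIs. In P27NULL they were 19 without hormones in the total, 20 with TMM and 23 at a hormone threshold of 5%, and in S2CK 245 with TMM and 176 with no Pou1f1 or Ghrhr UMI needed. Between P27NULL and WT the count of 146 became 244 with TMM, 7988 with no minimum, 14 with a minimum of 100 UMIs and 40 in Prl-led members. Between S2CK and P27NULL 97 became 208, 7582 and 8 in the same order, and 21 in Gh-led members. Between S2CK and WT 111 became 5781 with no minimum, 16 with a minimum of 100 UMIs and 49 in Prl-led members. Chosen after seeing the data were Prl-led members alone, Gh-led members alone between S2CK and WT, single cells left out, and counts of genes with no Pou1f1 or Ghrhr UMI needed. Changes with minimum counts or with fewer members follow from how many genes and cells enter, and for the other changes the cause was not tested.

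No paired analysis was possible because each genotype has 1 library. P27NULL members without Xist could not be compared, since there were 0 such cells. With 28498 UMIs in P27NULL members, genes under 105 CPM there are below the 3 UMIs that a count of 0 allows.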
